A study of Mus musculus with 9 samples.

Results

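The Slc25 genes encode the mitochondrial carriers, the largest family of membrane transporters in mitochondria. Here the family is every probe set whose only annotated gene symbol is Slc25a followed by a number: 50 of the 35557 probe sets on the array, for 46 of 19938 genes named by a single symbol. Of these 46 genes, 38 were bright enough to be tested, among 13182 tested genes. RNA was compared in mouse embryonic stem (ES) cells of the genotype Dgcr8 -/- in 3 groups of 3 biological replicates each: cells transfected with a let-7c mimic, cells transfected with a miR-294 mimic, and mock-transfected cells. All 9 cultures were grown without LIF, a cytokine that maintains ES cells, and were harvested at 12 h. The mimics were used at 50 nM. Every group, mock included, lacks Dgcr8, which is needed to process most microRNA precursors, so the cells make few microRNAs of their own. A control mimic was not part of the design, so differences from mock also carry whatever transfecting any RNA does. The sources used here do not give how many cell clones the cultures came from.

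Mitochondrial carriers are made in the cytosol, imported by the TOM complex and the small Tim chaperones, and inserted by TIM22, mostly into the inner membrane. Each carrier exchanges or imports a small set of solutes: ADP and ATP, phosphate, carboxylates, amino acids, acylcarnitines, cofactors or iron. They thereby link the cytosol to the respiratory chain, the citric acid cycle, one-carbon metabolism and haem synthesis. A microRNA lowers transcripts that pair with its seed, the bases near its 5′ end, while other transcripts can move in either direction as later effects.

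The mature sequences show that the 2 mimics have different seeds. They are RefSeq's (GRCm38.p6), printed 5′ to 3′ with the seed, bases 2 to 8, in capitals. The labels name the mimics only as let-7c and miR-294, and the arms printed are the well-known guide strands. The let-7c sequence is encoded at chr16:77599672-77599693 and at chr15:85706616-85706637, and that of miR-294 at chr7:3220691-3220712, all on the plus strand.
let-7c: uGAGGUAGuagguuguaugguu
miR-294: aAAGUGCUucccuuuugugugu

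The array medians lay between 7.36 and 7.41 (log2 intensity), and the lowest correlation between replicates was 0.9952 over the tested genes. Dgcr8 read 8.85 to 8.94 with let-7c, 9.07 to 9.13 with miR-294 and 8.92 to 9.08 with mock. Since the sources used here do not give which part of Dgcr8 was deleted, the probe set is no check of the genotype. All 8 ES cell markers were bright enough to be tested, while 4 of 7 feeder fibroblast markers (Dcn, Lum, Pdgfrb and Postn) were too dim. Of the 8 ES markers, 5 were lower with let-7c than with mock and 4 were higher with miR-294 than with mock. The summed intensity of all 8 was 15.46 to 15.49 with let-7c, 15.63 to 15.70 with miR-294 and 15.55 to 15.61 with mock (log2), and its part in the results below was not tested. The summed intensity of the 7 feeder markers overlapped between all groups, at 9.74 to 10.11 with let-7c, 9.83 to 10.06 with miR-294 and 9.71 to 9.94 with mock. Summed over 6 primitive endoderm markers it was 9.87 to 9.94 with let-7c and 9.82 to 9.87 with miR-294, both above the 9.69 to 9.79 of mock. Over 5 trophoblast markers it was 9.82 to 9.91 with let-7c, 9.94 to 9.96 with miR-294 and 9.90 to 10.02 with mock. Against mock, Gata4 was higher (0.31 ± 0.05, adjusted p = 0.000945) and Tfap2c lower (-0.31 ± 0.06, adjusted p = 0.00385) with let-7c, and Sox7 (0.36 ± 0.05, adjusted p = 0.000134) and the feeder marker Col3a1 (0.16 ± 0.06, adjusted p = 0.0372) were higher with miR-294. The part of these markers in the results was not tested either. No marker was at 0 on these arrays, where a dim probe set still has a reading. In bulk samples, fewer cells of a type and less RNA per cell cannot be told apart.

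All values are log2 intensities of 1 probe set per gene, so a difference of 1 is a 2-fold change, and no gene's level is set against another's. Differences were tested with limma over all 13182 genes. A gene is called higher or lower where its Benjamini-Hochberg adjusted p is under 0.05, and each ± following a log2 difference gives the standard error. Where a call is said to have ended without an array, the adjusted p without that array follows. Filters and other fits that ended a call are not given for every gene.

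**Figure D1:**
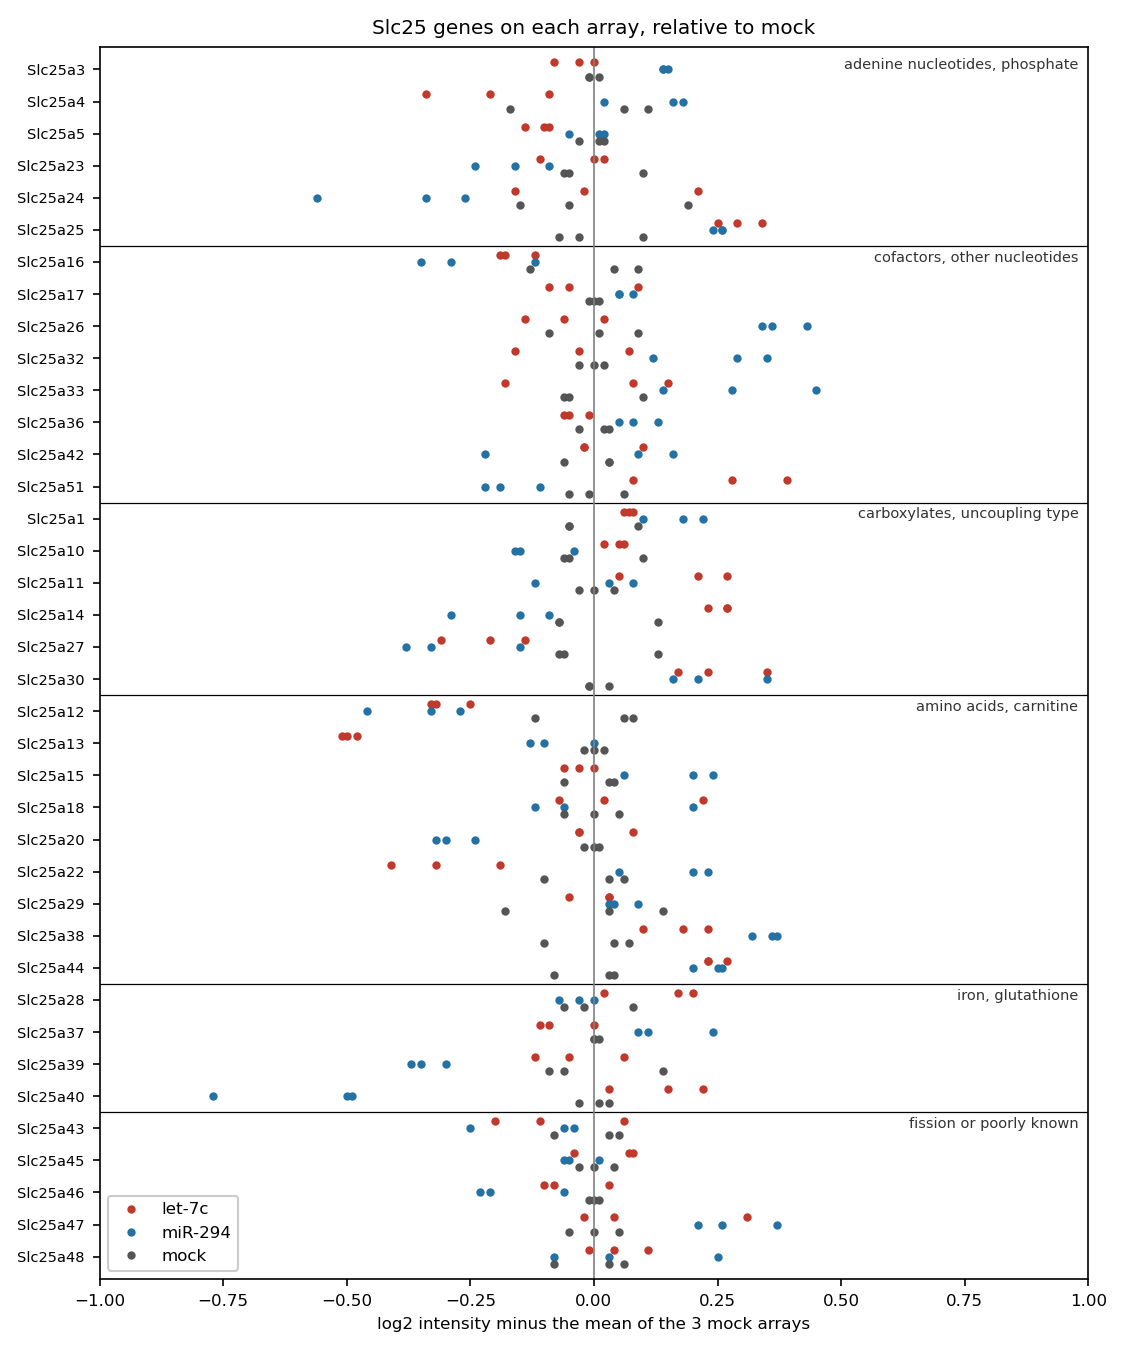
Each point is 1 array: the log2 intensity of a Slc25 gene minus the mean of its 3 mock arrays (x axis), for the 38 tested genes grouped by solute (y axis). The let-7c points of Slc25a13 lie apart from all its other arrays on the low side, as do the miR-294 points of Slc25a40, and most other points lie within 0.5 of the mock mean.

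Setting let-7c against mock addressed which carrier transcripts differed once a let-7 microRNA was present. The aspartate-glutamate carrier genes Slc25a13 and Slc25a12 and the glutamate carrier gene Slc25a22 fell by 0.49, 0.31 and 0.31 with let-7c, but not every glutamate carrier gene was called. Slc25a25, Slc25a30 and Slc25a44, whose proteins differ in what they carry, were higher by 0.24 to 0.30. Relatives of theirs did not all move the same way: Slc25a23 and Slc25a24 were not called, and Slc25a27 was called lower. In all, 6 of the 38 genes were called higher, against 13.9% of all genes tested, and 4 were called lower, against 14.8% of all. The share of Slc25 genes called in either direction was 26.3%, near the 28.7% of all genes. Their median difference was 0.01, against 0.02 over all genes, and none of the 38 reached 0.5. Arrays of the 2 groups did not overlap for 7 genes on the high side (22% of all genes) and 5 on the low side (21.9%), which is 12 of 38 in either direction (43.9% of all genes).

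Slc25a13 encodes citrin, which exchanges mitochondrial aspartate for cytosolic glutamate in the malate-aspartate shuttle. Its arrays read 10.60, 10.57 and 10.58 with let-7c, against 11.10, 11.08 and 11.06 with mock. Every let-7c array lay below every mock array, with a gap many times the spread within either group, and the difference was -0.49 ± 0.05 (1.41-fold lower, adjusted p = 3.03e-05, 95% interval -0.59 to -0.39). Slc25a12 encodes aralar, the paralog of citrin. Values of 9.94, 9.87 and 9.86 were read with let-7c, against 10.25, 10.27 and 10.07 with mock, so the groups did not overlap (-0.31 ± 0.06, adjusted p = 0.00494). Slc25a22, for a glutamate carrier that moves glutamate with protons, read 7.76, 7.54 and 7.63 with let-7c and 7.85, 7.98 and 8.01 with mock. Here too the highest let-7c array was below the lowest mock array (-0.31 ± 0.07, adjusted p = 0.00791). The related glutamate carrier gene Slc25a18 did not pass the threshold (0.06 ± 0.09, adjusted p = 0.657).

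Among the genes higher with let-7c, Slc25a25 encodes an ATP-Mg/phosphate carrier that responds to calcium and adjusts the adenine nucleotide pool of the matrix. It read 8.22, 8.26 and 8.31 with let-7c, against 7.94, 8.07 and 7.90 with mock, with no overlap (0.30 ± 0.05, adjusted p = 0.00151). Its relatives Slc25a23 (-0.03 ± 0.06, adjusted p = 0.77) and Slc25a24 (0.01 ± 0.11, adjusted p = 0.95) did not pass the threshold. Slc25a44, for a carrier of branched-chain amino acids, read 9.43, 9.43 and 9.47 with let-7c and 9.12, 9.24 and 9.23 with mock (0.25 ± 0.05, adjusted p = 0.00251). Slc25a30, whose protein resembles the uncoupling proteins, read 8.08, 7.90 and 7.96 with let-7c and 7.76, 7.72 and 7.72 with mock (0.24 ± 0.06, adjusted p = 0.0129). For both genes all let-7c arrays were above all mock arrays.

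The other 4 calls were less stable. Slc25a14, also uncoupling-protein-like, was higher with let-7c (0.26 ± 0.07, adjusted p = 0.0144), a call that ended without mock replicate 1 (0.0547) or mock replicate 2 (0.0597). The NAD+ carrier gene Slc25a51 was higher (0.25 ± 0.07, adjusted p = 0.0228), which ended without let-7c replicate 1 (0.0787) or 3 (0.0705) and without mock replicate 1 (0.0726) or 3 (0.063). The mitochondrial glycine carrier gene Slc25a38, which serves haem synthesis, was higher by 0.17 ± 0.05 (adjusted p = 0.0434). That ended without let-7c replicate 1 (0.0932) or 3 (0.139) and without mock replicate 1 (0.159) or 3 (0.0633). The call also ended when only the let-7c and mock arrays were fitted (0.0673). Slc25a27, another uncoupling-type gene, was lower (-0.22 ± 0.07, adjusted p = 0.0447), which ended without let-7c replicate 2 (0.137) or 3 (0.0916) and without mock replicate 1 (0.0507), 2 (0.0618) or 3 (0.16). Without mock replicate 1, only 3 genes were called higher in place of 6. Over all genes, the share called in either direction also fell without that array, from 28.7% to 23%. With the replicate number as a block, Slc25a11 (0.18 ± 0.07, adjusted p = 0.07 without the block and 0.0424 with it) and Slc25a28 (0.13 ± 0.06, adjusted p = 0.112 without and 0.0387 with it) were called higher as well.

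**Figure D2:**
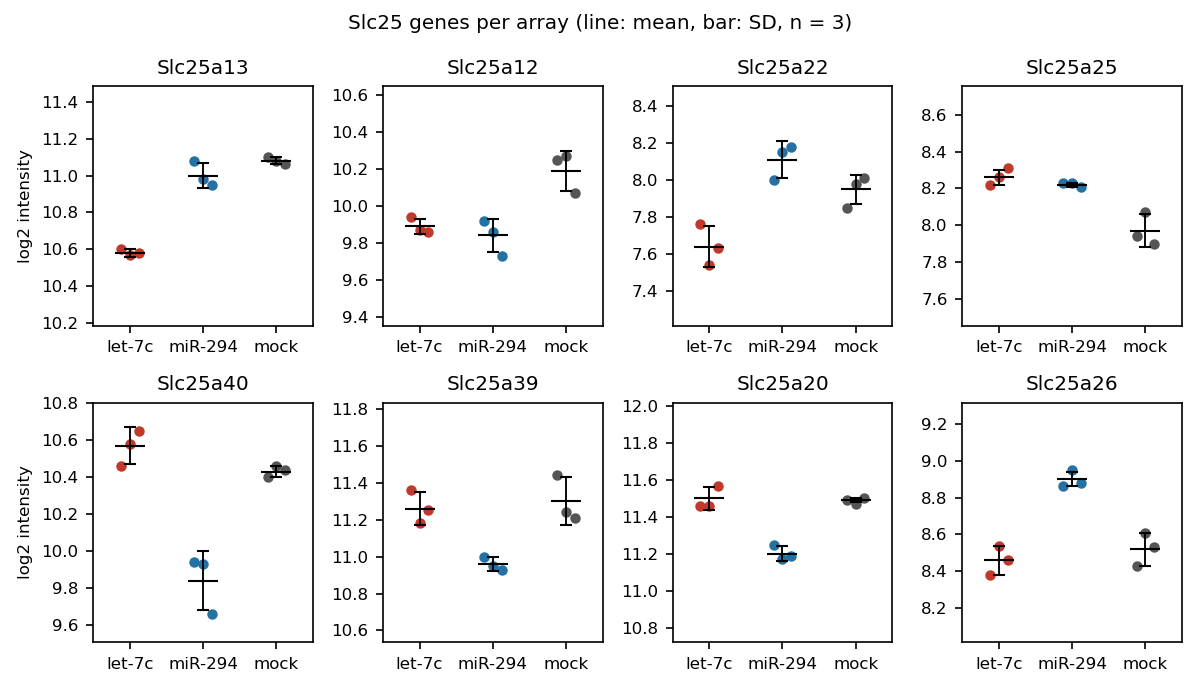
Log2 intensity (y axis, 1.3 units tall in every panel) of 8 Slc25 genes on each array, with the group mean as a line and the SD as a bar (n = 3). Slc25a13 and Slc25a22 were low with let-7c, Slc25a40, Slc25a39 and Slc25a20 were low with miR-294, Slc25a26 was high with miR-294, and Slc25a12 and Slc25a25 differed from mock with either mimic.

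The same was asked of miR-294, a microRNA abundant in ES cells, against mock. The glutathione carrier genes Slc25a40 and Slc25a39 fell by 0.59 and 0.33 with miR-294 and the acylcarnitine carrier gene Slc25a20 fell by 0.29, and Slc25a12 and the ATP-Mg/phosphate carrier gene Slc25a24 were lower too. Slc25a26 (S-adenosylmethionine), Slc25a38 (glycine), Slc25a32 (folate) and Slc25a33 (a pyrimidine nucleotide carrier) were higher, by 0.26 to 0.37. Slc25a47 (0.28) and Slc25a25 (0.26) were higher as well. Of the 38 genes, 12 were called higher and 8 lower, against 20.7% and 21.1% of all genes tested. In either direction this was 52.6% of the Slc25 genes and 41.9% of all genes. Their median difference was 0.01 and their median size of difference 0.17, against 0.02 and 0.13 over all genes. Only Slc25a40 passed 0.5, and none reached 2-fold. The groups did not overlap for 14 genes on the high side (28.3% of all genes) and 10 on the low side (25.5%), which is 24 of 38 in either direction (53.8% of all genes).

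Slc25a40 and Slc25a39 are paralogs needed for glutathione entry into mitochondria. For Slc25a40 the arrays read 9.94, 9.93 and 9.66 with miR-294, against 10.40, 10.46 and 10.44 with mock. The miR-294 arrays were all lower, although replicate 3 lay below the other two (-0.59 ± 0.08, 1.5-fold lower, adjusted p = 0.000117, 95% interval -0.76 to -0.42). A second probe set for Slc25a40, not used in the main test, read 8.57, 8.23 and 8.39 with miR-294 and 9.06, 9.25 and 9.17 with mock. Tested among all probe sets it was lower as well (-0.76 ± 0.09, adjusted p = 0.000371). For Slc25a39 the values were 11.00, 10.95 and 10.93 with miR-294 and 11.44, 11.24 and 11.21 with mock, again without overlap (-0.33 ± 0.07, adjusted p = 0.00236).

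Slc25a20 encodes the carnitine/acylcarnitine carrier, through which long-chain fatty acids reach the matrix for oxidation. It read 11.25, 11.17 and 11.19 with miR-294, against 11.49, 11.47 and 11.50 with mock (-0.29 ± 0.05, adjusted p = 0.000498), and the groups were well separated. Slc25a12 read 9.92, 9.86 and 9.73 with miR-294, below the 10.07 to 10.27 of mock (-0.36 ± 0.06, adjusted p = 0.00107), whereas citrin's gene Slc25a13 did not pass the threshold (-0.07 ± 0.05, adjusted p = 0.225). Slc25a27 was lower too (-0.29 ± 0.07, adjusted p = 0.00933), at 7.43 to 7.66 with miR-294 and 7.74 to 7.94 with mock. Slc25a24 read 7.35, 7.27 and 7.05 with miR-294, against 7.80, 7.56 and 7.46 with mock (-0.38 ± 0.11, adjusted p = 0.0166), which was no longer called without miR-294 replicate 3 (0.0668) or without mock replicate 1 (0.0657). Slc25a16, for a carrier linked to coenzyme A, was lower by 0.25 ± 0.07 (log2 difference -0.25, adjusted p = 0.0144) although its groups overlapped. It was not called without miR-294 replicate 3 (0.0587) or without mock replicate 2 (0.061).

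Of the genes higher with miR-294, Slc25a26 imports S-adenosylmethionine, the methyl donor for mitochondrial RNA and protein. Its arrays read 8.86, 8.95 and 8.88 with miR-294, against 8.43, 8.61 and 8.53 with mock, with no overlap (0.37 ± 0.06, adjusted p = 0.000437). Slc25a38 read 9.93, 9.94 and 9.89 with miR-294 and 9.47, 9.64 and 9.61 with mock (0.35 ± 0.05, adjusted p = 0.000468). Both genes' lowest miR-294 array lay well above their highest mock array. Slc25a32, for the carrier of folate and FAD, read 8.68, 8.91 and 8.85 with miR-294 and 8.58, 8.53 and 8.56 with mock (0.26 ± 0.07, adjusted p = 0.012; ended without miR-294 replicate 2, 0.0515). Slc25a33, for a pyrimidine nucleotide carrier, read 8.28, 7.97 and 8.11 with miR-294 and 7.93, 7.77 and 7.78 with mock (0.29 ± 0.09, adjusted p = 0.027). Its groups were separated by only a small gap, and the call ended without miR-294 replicate 1 (0.1) or 3 (0.0565) and without mock replicate 2 (0.0854) or 3 (0.0777). Its relative Slc25a36 did not pass the threshold (0.08 ± 0.04, adjusted p = 0.15).

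Slc25a25 (0.26 ± 0.05, adjusted p = 0.0021), Slc25a44 (0.24 ± 0.05, adjusted p = 0.00155) and Slc25a30 (0.23 ± 0.06, adjusted p = 0.0102) were higher with miR-294 too. Slc25a3, which supplies phosphate for ATP synthesis, was higher by 0.15 ± 0.04 (adjusted p = 0.0152), at 11.08 to 11.09 with miR-294 and 10.93 to 10.95 with mock. The ADP/ATP exchanger genes did not pass the threshold, with Slc25a4 at 0.12 ± 0.08 (adjusted p = 0.25) and Slc25a5 at -0.01 ± 0.04 (adjusted p = 0.93). All 3 probe sets of Slc25a5 lay between -0.04 and -0.01.

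Calls that depended on single arrays made up the remainder. The citrate carrier gene Slc25a1 was higher (0.17 ± 0.05, adjusted p = 0.0235), which ended without miR-294 replicate 1 (0.054) or 2 (0.0878) and without mock replicate 1 (0.0842) or 3 (0.0858). Slc25a15, for the ornithine carrier of the urea cycle, was higher (0.16 ± 0.06, adjusted p = 0.0331), which ended without miR-294 replicate 1 (0.111) or 2 (0.0996) and without mock replicate 2 (0.0587) or 3 (0.115). The call also ended when only the miR-294 and mock arrays were fitted (0.0506). Slc25a47 was higher (0.28 ± 0.08, adjusted p = 0.0151), a call that depended on miR-294 replicate 1 (0.0554 without it) and on mock replicate 2 (0.0539 without it). Its arrays read 7.65, 7.49 and 7.54 with miR-294 and 7.28, 7.23 and 7.33 with mock, without overlap. Mitoferrin 1, the iron importer encoded by Slc25a37, was higher at the RNA level (0.14 ± 0.05, adjusted p = 0.0441), which ended without miR-294 replicate 1 (0.149) or 3 (0.0589) or without mock replicate 1 (0.0867), 2 (0.1) or 3 (0.0984). With an intensity trend this call ended too (0.0821). Slc25a46, whose protein sits in the outer membrane and acts in mitochondrial dynamics, was lower (-0.17 ± 0.06, adjusted p = 0.0289). That ended without miR-294 replicate 2 (0.104) or 3 (0.0951) or without mock replicate 1 (0.0639), 2 (0.064) or 3 (0.0756).

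**Figure D3:**
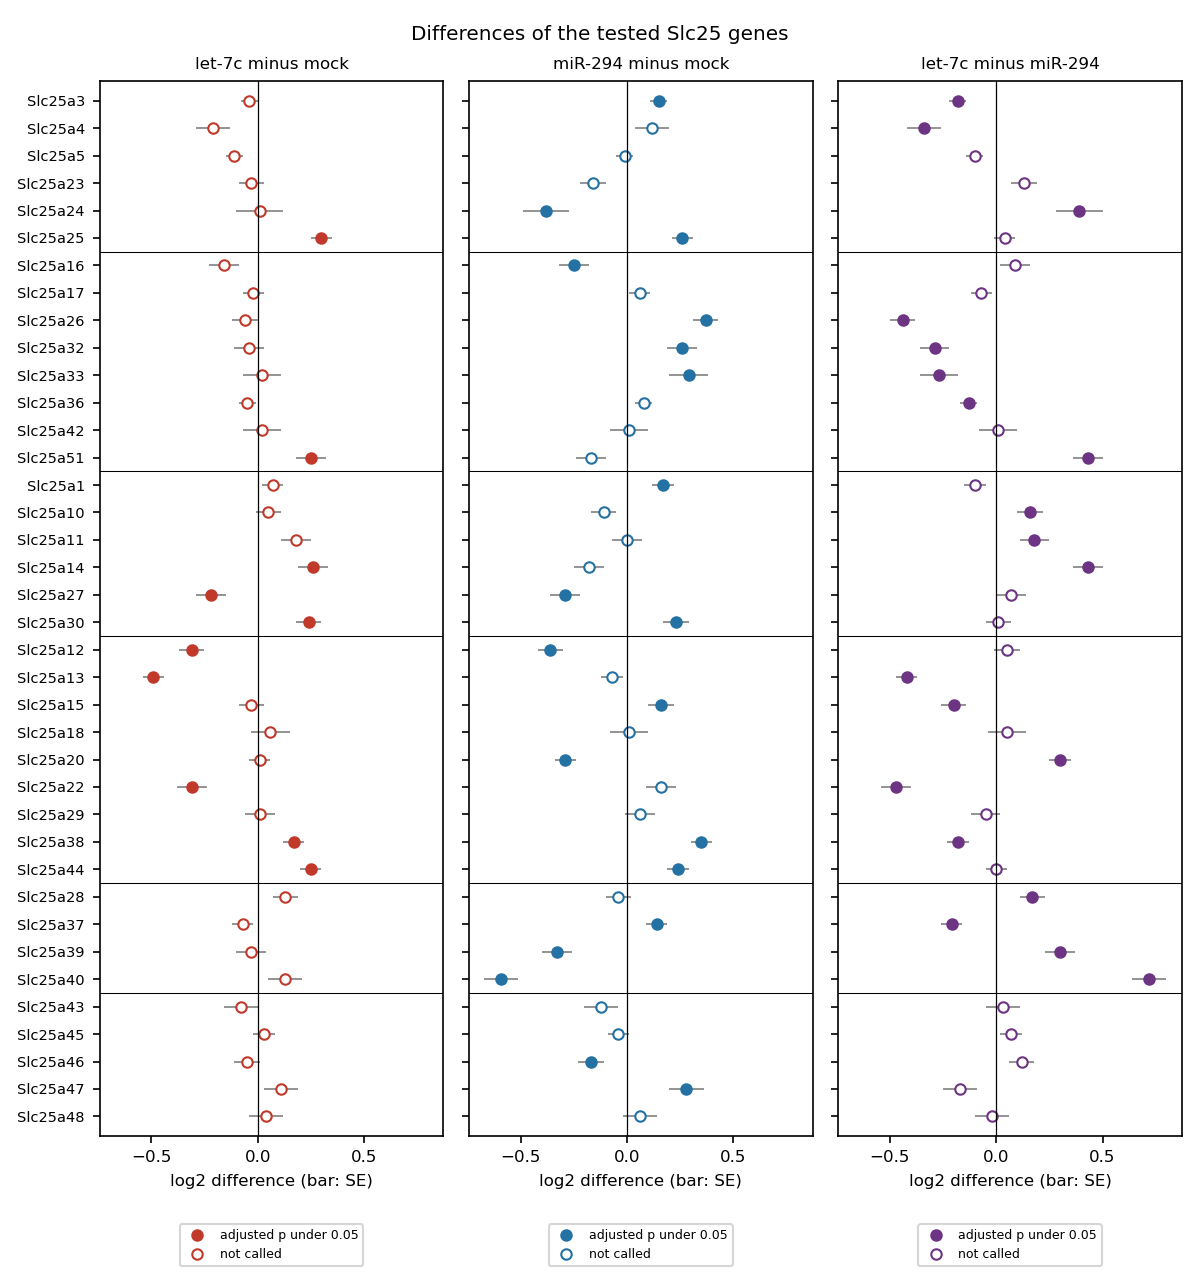
Log2 difference (x axis) with its standard error (bar) for each tested Slc25 gene (y axis, grouped by solute as in the plot by array), in 3 panels: each mimic minus mock, then let-7c minus miR-294. Filled points have an adjusted p under 0.05, and Slc25a40 has the largest difference in the direct comparison (0.72).

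The direct comparison of the mimics asked which carriers let-7c and miR-294 set apart. Its differences come from the 6 mimic arrays, while the mock arrays add to the estimate of spread behind its SE and p. With let-7c, Slc25a40, Slc25a14, Slc25a51, Slc25a24, Slc25a39 and Slc25a20 were higher than with miR-294, by 0.30 to 0.72. Lower with let-7c were Slc25a22, Slc25a26, Slc25a13, Slc25a4, Slc25a32 and Slc25a33, with differences of -0.47 to -0.27. Of the 38 genes, 9 were called higher and 11 lower, against 26.2% and 24.5% of all genes. In either direction the share was 52.6% of the Slc25 genes and 50.8% of all genes, with median sizes of difference of 0.16 in both. The groups did not overlap for 8 genes on the high side (28.7% of all genes) and 13 on the low side (28.3%), which is 21 of 38 in either direction (57% of all genes).

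Slc25a40 read 10.46, 10.58 and 10.65 with let-7c, against 9.94, 9.93 and 9.66 with miR-294, the widest separation in the family here (0.72 ± 0.08, 1.65-fold, adjusted p = 1.37e-05). Its other probe set gave 0.75 ± 0.09 (adjusted p = 0.00022). Slc25a14 read 7.32, 7.36 and 7.36 with let-7c, against 6.94, 6.80 and 7.0 with miR-294 (0.43 ± 0.07, adjusted p = 0.000217). This gene is dim: at 8 of 9 arrays it lay above the 40th percentile of its array, and the exception was among the miR-294 arrays. Slc25a51 read 9.66, 9.35 and 9.55 with let-7c and 9.16, 9.05 and 9.08 with miR-294 (0.43 ± 0.07, adjusted p = 0.000445). Slc25a24 read 7.82, 7.45 and 7.59 with let-7c (0.39 ± 0.11, adjusted p = 0.0109). Slc25a39 read 11.36, 11.18 and 11.25 with let-7c (0.30 ± 0.07, adjusted p = 0.00302). Slc25a20 read 11.46, 11.46 and 11.57 with let-7c (0.30 ± 0.05, adjusted p = 0.000239). Groups did not overlap for any of these genes. Against mock, miR-294 values of Slc25a14 (-0.18 ± 0.07, adjusted p = 0.0526) and Slc25a51 (-0.17 ± 0.07, adjusted p = 0.0752) did not pass the threshold. With the replicate number as a block Slc25a14 was called lower (adjusted p = 0.0216), as was Slc25a23 for miR-294 minus mock (-0.16 ± 0.06, adjusted p = 0.0534 without the block and 0.0144 with it).

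Slc25a13 read 10.57 to 10.60 with let-7c and 10.95 to 11.08 with miR-294 (-0.42 ± 0.05, adjusted p = 1.65e-05). Slc25a22 read 7.54 to 7.76 with let-7c and 8.0 to 8.18 with miR-294 (-0.47 ± 0.07, adjusted p = 0.000181). The gap between the groups exceeded their own ranges for Slc25a13, and for Slc25a22 it was about as wide as each range. Slc25a26 was at 8.38 to 8.54 with let-7c and 8.86 to 8.95 with miR-294 (-0.44 ± 0.06, adjusted p = 8.25e-05). The muscle-type ADP/ATP exchanger gene Slc25a4 read 11.00, 11.13 and 11.25 with let-7c and 11.36, 11.52 and 11.50 with miR-294 (-0.34 ± 0.08, adjusted p = 0.00536), while against mock it did not pass with let-7c (-0.21 ± 0.08, adjusted p = 0.08) or miR-294. With the replicate number as a block it passed against mock with both, lower with let-7c (adjusted p = 0.00649) and higher with miR-294 (adjusted p = 0.0464). The mitoferrin genes moved apart: Slc25a37 was lower with let-7c (-0.21 ± 0.05, adjusted p = 0.00483), and Slc25a28, for mitoferrin 2, was higher (0.17 ± 0.06, adjusted p = 0.031). The call of Slc25a28 ended without let-7c replicate 1 (0.103) or 3 (0.0966) and without miR-294 replicate 2 (0.0973) or 3 (0.0616).

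The further calls below had differences of 0.29 or less in size. Those of Slc25a3, Slc25a15 and Slc25a32 held under each alternative fit run. The phosphate carrier gene Slc25a3 (-0.18 ± 0.04, adjusted p = 0.00291) was lower with let-7c, and so was Slc25a15 (-0.20 ± 0.06, adjusted p = 0.0107). Slc25a32 was lower by 0.29 ± 0.07 (log2 difference -0.29, adjusted p = 0.00414). Slc25a33 was lower with overlapping groups (-0.27 ± 0.09, adjusted p = 0.0298), which ended without let-7c replicate 1 (0.116) and without miR-294 replicate 1 (0.117) or 3 (0.0582). Slc25a38 was lower (-0.18 ± 0.05, adjusted p = 0.0169), which ended without let-7c replicate 2 (0.0683) or miR-294 replicate 2 (0.0503). Slc25a36 was lower (-0.13 ± 0.04, adjusted p = 0.0255), which ended without let-7c replicate 2 (0.0635) or 3 (0.0719) and without miR-294 replicate 1 (0.08) or 2 (0.0581). The call also ended when only the let-7c and miR-294 arrays were fitted (0.0516), with no filter (0.0567) and with quantile normalization (0.285). The oxoglutarate carrier gene Slc25a11 was higher (0.18 ± 0.07, adjusted p = 0.0418) with overlapping groups, and that ended without let-7c replicate 1 (0.142) or 3 (0.114) and without miR-294 replicate 2 (0.061) or 3 (0.166), and also when only the let-7c and miR-294 arrays were fitted (0.0702). The dicarboxylate carrier gene Slc25a10 was higher (0.16 ± 0.06, adjusted p = 0.0305), which ended without let-7c replicate 1 (0.0663) or 3 (0.0778) and without miR-294 replicate 1 (0.0836) or 2 (0.102).

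Some genes called against mock with either mimic did not pass the threshold in the direct comparison. For Slc25a12 the difference was 0.05 ± 0.06 (adjusted p = 0.53), with a 95% interval of -0.09 to 0.20. Slc25a44 differed by 0.00 ± 0.05 (adjusted p = 0.959, interval -0.10 to 0.11), Slc25a25 by 0.04 ± 0.05 (adjusted p = 0.546, interval -0.07 to 0.15) and Slc25a30 by 0.01 ± 0.06 (adjusted p = 0.922, interval -0.13 to 0.14). These intervals bound how far the mimics could differ and do not show that they act alike. Both comparisons with mock share the same 3 mock arrays. The mock arrays of Slc25a44 read 9.12, 9.24 and 9.23, and those of Slc25a12 read 10.25, 10.27 and 10.07.

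Counts by solute are small and stand beside a background of 20.7% of all genes higher and 21.1% lower with miR-294, and 13.9% higher and 14.8% lower with let-7c. With miR-294, the cofactor and nucleotide carriers had 3 higher and 1 lower of 8 tested (median 0.07), and the amino acid and carnitine carriers had 3 higher and 2 lower of 9 (median 0.06). Of the 4 iron and glutathione carriers, 1 was higher and 2 were lower with miR-294 (median -0.18), while with let-7c the 4 had adjusted p values of 0.112 to 0.759. With let-7c, the amino acid and carnitine carriers had 2 higher and 3 lower (median 0.01), and of the 6 tested adenine nucleotide and phosphate carriers only Slc25a25 was called. Slc25a4 (adjusted p = 0.08) and Slc25a5 (adjusted p = 0.0771) were not called, but each was called lower under 3 of 15 alternative fits. No test was made of these groups, and nothing is read from their shares.

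A promoter with 1 of the 2 motifs searched for was found for 6 genes called in at least 1 comparison with mock, Slc25a1, Slc25a13, Slc25a14, Slc25a15, Slc25a25 and Slc25a33. Those of 4 of them, picked after their values were seen, are shown as examples of where the motifs lie. RefSeq's promoter table (GRCm38.p6; 250 bases before to 50 after the start site) matched 36 of the 46 genes with 46 promoters. It was not used for Slc25a2, Slc25a26, Slc25a27, Slc25a32, Slc25a35, Slc25a37, Slc25a41, Slc25a44, Slc25a46 and Slc25a51. The E-box CACGTG, the motif bound by Myc with Max, is its own reverse complement, so a search of either strand finds the same matches. It was found in 8 of the 46 promoters (17.4%), against 7.15% of all 32851 promoters. The genes were Slc25a1, Slc25a13, Slc25a14, Slc25a15, Slc25a31, Slc25a33 and Slc25a36. For Slc25a14, overlapping windows held the same E-box, which was counted once for each window. The share over all promoters was counted by promoter too. The cAMP response element TGACGTCA, also its own reverse complement, was found in 2 (4.35%, against 1.79% of all), those of Slc25a25 and Slc25a36. None of the promoters printed held both motifs, so no overlap could occur there. The promoter of Slc25a36, not printed, held an E-box 187 and a cAMP response element 161 bases before the start site. Matches are letters in a window and say nothing of binding; genes with an E-box were higher with miR-294 (Slc25a1, Slc25a15 and Slc25a33), lower with let-7c (Slc25a13), higher with let-7c (Slc25a14), called against mock with neither mimic (Slc25a36) or not tested (Slc25a31). Capitals mark the motif: an E-box that starts 125 bases before the start site in Slc25a13 (chr6:6217124-6217423, minus strand), 77 before it in Slc25a15 (chr8:22398228-22398527, minus strand) and 8 before it in Slc25a33 (chr4:149774218-149774517, minus strand), and a cAMP response element 150 bases before it in Slc25a25 (chr2:32424017-32424316, minus strand).
Slc25a13: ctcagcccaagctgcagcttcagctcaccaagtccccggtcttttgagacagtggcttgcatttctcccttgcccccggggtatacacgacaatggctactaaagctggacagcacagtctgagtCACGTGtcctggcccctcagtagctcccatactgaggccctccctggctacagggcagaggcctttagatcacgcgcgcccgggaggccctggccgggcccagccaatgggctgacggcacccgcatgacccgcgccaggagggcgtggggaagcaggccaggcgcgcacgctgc
Slc25a15: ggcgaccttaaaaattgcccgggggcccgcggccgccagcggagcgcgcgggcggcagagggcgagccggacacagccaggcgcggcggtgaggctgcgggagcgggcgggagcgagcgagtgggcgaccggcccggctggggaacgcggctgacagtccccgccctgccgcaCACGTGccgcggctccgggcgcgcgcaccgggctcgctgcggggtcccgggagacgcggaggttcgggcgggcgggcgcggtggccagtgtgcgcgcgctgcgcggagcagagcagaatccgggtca
Slc25a33: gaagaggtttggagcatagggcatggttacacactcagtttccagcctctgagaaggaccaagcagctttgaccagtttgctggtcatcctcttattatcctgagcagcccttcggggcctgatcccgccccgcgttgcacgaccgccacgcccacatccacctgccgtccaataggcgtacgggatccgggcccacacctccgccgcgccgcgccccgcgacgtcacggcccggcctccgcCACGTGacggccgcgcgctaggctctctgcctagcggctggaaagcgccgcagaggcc
Slc25a25: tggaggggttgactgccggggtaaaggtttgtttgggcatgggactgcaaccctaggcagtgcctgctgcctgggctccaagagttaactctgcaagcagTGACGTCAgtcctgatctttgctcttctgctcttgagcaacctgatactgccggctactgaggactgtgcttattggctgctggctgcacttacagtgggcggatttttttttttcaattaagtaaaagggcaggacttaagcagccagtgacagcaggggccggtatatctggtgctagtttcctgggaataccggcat

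Other genes of mitochondrial transport and of the pathways that the carriers serve were listed with the family. Their counts stand beside a background of 20.7% of all genes higher and 21.1% lower with miR-294. With let-7c the background is 13.9% higher and 14.8% lower. No test was made of the lists as sets, and calls of the listed genes were not followed under the alternative fits. The machinery that imports carriers was higher with miR-294, with 9 of 11 tested genes called higher and the other 2 not called (median 0.38, against 0.02 over all genes). Timm8a1 (0.85 ± 0.06), Timm10 (0.45 ± 0.06) and Timm22 (0.43 ± 0.05), for a small Tim chaperone subunit, another such subunit and the inserting translocase, rose most. With let-7c, 3 were lower, namely Timm8a1 (-0.24 ± 0.06), Timm9 (-0.19 ± 0.05) and the receptor gene Tomm70a (-0.17 ± 0.04), and Timm13 was higher (0.17 ± 0.05; list median -0.09). The Slc25 genes themselves had a median of 0.01 with either mimic.

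Folate enzymes, which use what Slc25a32 imports, were higher in 4 of 9 tested cases with miR-294, the others not being called (median 0.11). Among them Mthfd2 (0.57 ± 0.13), Shmt1 (0.56 ± 0.05) and Shmt2 (0.38 ± 0.06) rose; the products of Mthfd2 and Shmt2 act in mitochondria. With let-7c 3 of the 9 were lower (median -0.19), Shmt2 (-0.34 ± 0.06), Amt (-0.28 ± 0.08) and Mthfd1 (-0.19 ± 0.05). Enzymes of acylcarnitine oxidation, which lie beside Slc25a20, were lower with miR-294 in 5 of 9 cases, the others not being called (median -0.22). Hadhb, for a subunit of the trifunctional protein of fatty acid oxidation, fell by 1.35 (SE 0.05, adjusted p = 2.21e-08), Cpt1a by 1.03 (SE 0.07, adjusted p = 8.69e-07) and Cpt2 by 0.34 (SE 0.07, adjusted p = 0.00186). With let-7c, Acadl was higher (0.35 ± 0.06, adjusted p = 0.00147) and Cpt1a lower (-0.20 ± 0.07, adjusted p = 0.0456).

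Of the 12 tested genes of the malate-aspartate and citrate shuttles, 2 were higher and 4 lower with miR-294 (20.7% and 21.1% of all genes). The cytosolic aspartate aminotransferase gene Got1 rose (0.45 ± 0.04), while citrate synthase (Cs, -0.62 ± 0.05) and malate dehydrogenase 2 (Mdh2, -0.39 ± 0.04) fell. With let-7c, Got1 fell (-0.28 ± 0.04), and the malic enzyme gene Me1 rose (0.41 ± 0.05). Iron-sulfur and haem genes had 4 higher and 1 lower of 11 with miR-294, led by Isca1 (0.42 ± 0.06), and 2 higher and 2 lower with let-7c, where Isca2 fell most (-0.49 ± 0.07). Genes for mitochondrial DNA, its transcription and nucleotides had 3 higher and 3 lower of 9 with miR-294, led by the helicase gene Twnk (0.48 ± 0.05) and by Ak3 (-0.40 ± 0.06). With let-7c they had 2 higher and 3 lower, and Tfb2m (-0.42 ± 0.06) and Twnk (-0.36 ± 0.05) fell most.

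Transporters of mitochondria outside the family had 2 higher and 6 lower of 13 with miR-294, and with let-7c only Sfxn3 was called. Mpc1, which encodes a subunit of the pyruvate carrier, fell by 1.27 with miR-294 (SE 0.06, adjusted p = 4.76e-08), 2.41-fold, more than any tested Slc25 gene. The serine transporter gene Sfxn1 rose with miR-294 (0.61 ± 0.05), and its relative Sfxn3 fell with miR-294 (-0.25 ± 0.06) but rose with let-7c (0.26 ± 0.06). Of carriers listed under other names, Mtch1, an outer membrane member, was higher with let-7c (0.23 ± 0.05, adjusted p = 0.00757), Mtch2 passed in neither comparison with mock, and Ucp1 and Ucp3 were too dim to be tested.

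**Figure D4:**
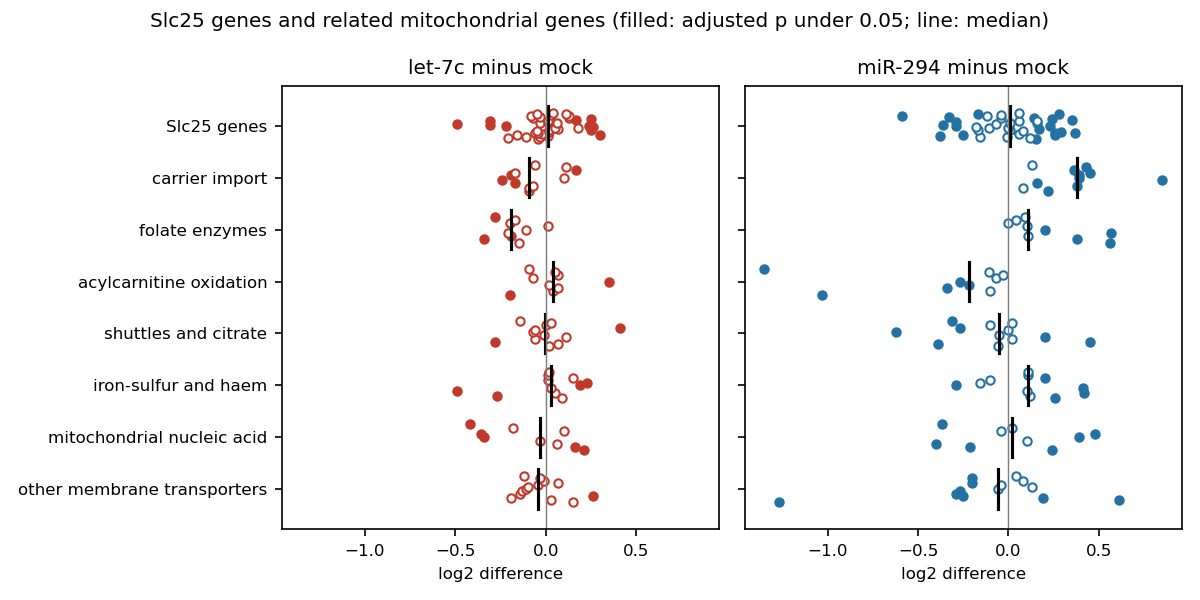
Log2 difference from mock (x axis) of each tested gene, for the Slc25 genes and 7 lists of related mitochondrial genes (y axis), with let-7c on the left and miR-294 on the right. Filled points have an adjusted p under 0.05 and the vertical line is the list median, which is 0.01 for the Slc25 genes with either mimic and 0.38 for carrier import with miR-294.

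The 8 Slc25 genes left out as dim were Slc25a2, Slc25a21, Slc25a31, Slc25a34, Slc25a35, Slc25a41, Slc25a53 and Slc25a54. None of them exceeded the 40th percentile (6.84 to 6.90) on any array, except Slc25a31 on 1 array. Slc25a31, the germ cell ADP/ATP exchanger, read 6.82, 6.87 and 7.04 with let-7c, 6.59, 6.61 and 6.51 with miR-294 and 6.35, 6.55 and 6.69 with mock. Its let-7c arrays were the highest, at a brightness where the array gives little information, and it was not tested. Slc25a48 was tested with 6 of 9 arrays above the percentile and passed in no comparison. Of those tested, Slc25a14 and Slc25a48 alone had any array at or below it.

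Just 3 genes had more than 1 probe set. Those of Slc25a40 gave the same direction in both comparisons with miR-294. The 3 probe sets of Slc25a5, for the main ADP/ATP exchanger of dividing cells, gave -0.11, -0.13 and -0.15 for let-7c minus mock, of which only the last, on the dimmest probe set, was called among all probe sets (adjusted p = 0.0338). For let-7c minus miR-294 they gave -0.10, -0.12 and -0.12, of which the second was called (adjusted p = 0.0439). Let-7c arrays lay below all mock arrays on each of the 3. Near-identical copies of such genes can share probes, so the probe sets are not independent readings. The probe sets of Slc25a36 gave -0.13 and -0.12 for let-7c minus miR-294, of which the first was called.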

How the data were processed

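RNA of 9 cultures was labelled with biotin and hybridised to 1-colour arrays. The authors made the values of the table, 1 for each probe set on each array, with GCRMA (background correction, normalization and summary of probes), per the submitters' processing notes; no version or settings were found in what was read for this work. The deposited values were read as log2 intensities from their range (2.54 to 14.97), since no header states the scale, and were used without further normalization. The number of arrays limits the precision.

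Probe sets were named from GEO's platform annotation: 21789 had 1 symbol, 1621 several and 12147 none. The symbols of all 46 Slc25 genes matched current RefSeq names. Each gene was represented by its brightest probe set and was tested where 3 or more arrays exceeded the 40th percentile of all probe sets on that array, which kept 13182 of 19938 genes. A gene bright in 1 group alone was kept too. In R 4.3.3, limma 3.58.1 (lmFit and eBayes) fitted 3 group means to the 9 arrays, with 6 residual degrees of freedom and no block, and p-values were two-sided and adjusted over all genes tested. The code was tested on simulated data. Alternatives were a stricter or no filter, probe sets averaged or tested singly, quantile normalization, 75th percentile centring, an intensity trend, a replicate block, only the groups compared, stricter thresholds and leaving out each array.

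The members, lists and alternatives were chosen with earlier results of these data known. The rule for full statistics was up to 7 called Slc25 genes in each direction and comparison, by size of difference; the other called genes were added to account for every member. For the listed genes it was up to 3 called per list and comparison. Replicate numbers were taken to pair arrays where deviations from the group means correlated over 0.1 in each same-numbered pair. This held for the 3 pairs of let-7c with mock (0.133 to 0.418) and of miR-294 with mock (0.272 to 0.363), but not of let-7c with miR-294 (0.029 to 0.248). Differently numbered arrays of different groups correlated at -0.361 to 0.149, highest for let-7c replicate 3 with mock replicate 2. That is above the 0.133 of let-7c replicate 3 with mock replicate 3, so the correlations do not single out that pair. The labels say biological replicates without saying how the cultures were separated.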

Additional observations from a re-analysis of the deposited data

How the results depend on the processing

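Of the calls against mock, 6 of 10 with let-7c and 11 of 20 with miR-294 held under each alternative fit run, as did 14 of 20 in the direct comparison. The stricter filter left out some of these genes, so their calls were not tested there. They were Slc25a30 with let-7c, Slc25a27 and Slc25a30 with miR-294, and Slc25a14, Slc25a24 and Slc25a37 in the direct comparison. No called Slc25 gene changed direction. Quantile normalization ended the call of Slc25a46 for miR-294 minus mock (adjusted p = 0.0588). For let-7c minus miR-294 it ended those of Slc25a10 (0.0535), Slc25a28 (0.0615) and Slc25a36 (0.285). Centring on the 75th percentile ended the calls of Slc25a27 with let-7c (0.058) and Slc25a46 with miR-294 (0.0572) against mock. In the direct comparison it ended those of Slc25a10 (0.0606), Slc25a11 (0.0698) and Slc25a28 (0.0594). Leaving out 1 array gave 3 to 8 higher and 3 to 4 lower genes for let-7c minus mock, 8 to 10 and 6 to 8 for miR-294 minus mock, and 6 to 9 and 9 to 11 for let-7c minus miR-294. Over all genes, leaving out 1 array gave 20.4% to 25.5% called in either direction for let-7c minus mock, against 28.7%. For miR-294 minus mock it gave 34.2% to 39.4%, against 41.9%, and for let-7c minus miR-294 45.7% to 48.9%, against 50.8%. At an adjusted p under 0.01, 2 genes were higher and 3 lower for let-7c minus mock, 4 higher and 5 lower for miR-294 minus mock, and 5 higher and 7 lower for let-7c minus miR-294. A minimum difference of 0.5 left 0 higher and 0 lower for let-7c minus mock, 0 and 1 for miR-294 minus mock, and 1 and 0 for let-7c minus miR-294. These counts come from the main fit, with only the threshold made stricter. Over all genes these thresholds left 2065 and 377 calls of 3783 for let-7c minus mock, 3649 and 769 of 5521 for miR-294 minus mock, and 5195 and 1595 of 6694 for let-7c minus miR-294. With the replicate number as a block (replicate block), 8 higher and 5 lower, 13 and 10, and 10 and 11 Slc25 genes were called in the same order of comparisons, among them each of those called without it, and calls over all genes numbered 4557, 6185 and 7231. The report gives the Slc25 calls that the block added against mock; for let-7c minus miR-294, where the numbers were not taken as pairs, it added Slc25a23 (adjusted p = 0.0278). Scaling to the 75th percentile gave all-gene medians of 0.02, 0.05 and -0.03, against 0.02, 0.02 and -0.01. Dim probe sets limit what can be said of 8 Slc25 genes.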
